A study of Mus musculus with 4 samples.

Results

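Translation initiation and elongation factors are the proteins that bring messenger RNA, the initiator tRNA and the ribosomal subunits together and then move the ribosome along the message. They were examined in mouse liver RNA after hepatectomy by taking every gene whose symbol begins with Eif followed by a digit up to 6, or with Eef1 or Eef2. The rule found 64 genes of the 24421 symbols in the expression table and used no measured value. The gelADSC group held 2 liver libraries from hepatectomised mice given ADSC (cells named only by this abbreviation in the labels) set in a fibrin gel. The control group held 2 liver libraries from hepatectomised mice given the fibrin gel with no cells named, so surgery and gel were common to both groups. The sources used here do not give the strain, age or sex of the mice, the time after surgery or the number of cells. Libraries are named by the column numbers of the table, gelADSC 2 and 3 and control 1 and 3, and values of a group are given in that order. Nothing in the labels says that the libraries of a group came from separate mice, so p-values measure the spread between these samples, which may be technical.

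Initiation starts when eIF2, carrying GTP and the initiator tRNA, joins eIF1, eIF1A, eIF3 and eIF5 on the small ribosomal subunit. The cap-binding complex eIF4F then recruits the message, and eIF2B recharges eIF2 with GTP, a step blocked when stress kinases phosphorylate eIF2. During elongation eEF1A delivers aminoacyl-tRNA, eEF1B recharges eEF1A, and eEF2 moves the ribosome forward. In liver, protein synthesis increases during regeneration after resection, and several of the messages for these factors belong to a class that begins with a run of pyrimidines and is translated under control of the mTORC1 kinase.

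Values are FPKM (fragments per kilobase of transcript, scaled to the number of mapped fragments), a unit already divided by transcript length. Relative depth was estimated from the spacing of low values, and read numbers from the annotated lengths of 692 genes with 1 transcript. The estimates of 208 of these genes fell in the most frequent narrow range, which was used, so read numbers are rough. Depth was about 24400000 and 20100000 reads in gelADSC libraries and about 19900000 and 18100000 reads in control libraries. At this depth 1 read in a gene of 2 kb was worth 0.0205 to 0.0276 FPKM. The tissue label fitted the hepatocyte markers, whose 5 genes (Alb, Apoa1, Ttr, Cps1 and Hnf4a) summed to 32140 and 51290 FPKM in gelADSC libraries and 41960 and 47610 FPKM in control libraries. Most of that sum was Alb, which overlapped between the groups, as did Hnf4a. Ttr (2785 and 3503 FPKM, against 1935 and 1927 FPKM in control) and Cps1 were higher in both gelADSC libraries. Apoa1 was lower in both, with 6497 and 8784 FPKM, against 11510 and 13130 FPKM in control. By limma 0 of these 5 genes were called higher and 0 lower. Markers of some other cells also differed between the groups. The 5 bile duct genes summed to 57.7 and 49.5 FPKM in gelADSC libraries, against 170 and 311 FPKM in control libraries, with 3 of the 5 at 1 FPKM or more in every library and with Spp1 and Sox9 called lower by limma. Most of that sum was Spp1, with 52.1 and 43.5 FPKM in gelADSC libraries and 149.6 and 297.8 FPKM in control libraries. Krt7 and Epcam overlapped between the groups, and Krt19 was lower in both gelADSC libraries but was not called (limma adjusted p = 0.164). The 5 genes of adipose cells and their stroma summed to 42.2 and 15.4 FPKM in gelADSC libraries, against 102 and 53.5 FPKM in control libraries. That sum was carried by Fabp4, with 38.6 and 12.5 FPKM in gelADSC libraries and 98.0 and 52.4 FPKM in control libraries, while Pdgfra overlapped between the groups, Thy1 was higher in both gelADSC libraries (0.992 and 0.830 FPKM, against 0.665 and 0.0637 FPKM in control), and Adipoq and Plin1 were listed at 0 in 1 library of each group. The 5 erythroid genes summed to 40.1 and 38.9 FPKM in gelADSC libraries, against 10.95 and 9.99 FPKM in control libraries, nearly all from Alas2, while Hbb-bs, Hbb-b1 and Hba-a1 were listed at 0 in all 4 libraries. The 5 macrophage genes summed to 217 and 93.9 FPKM in gelADSC libraries, against 203 and 193 FPKM in control libraries. Lyz2 made up most of the difference between the gelADSC libraries, and Cd68 was lower in both, with 16.6 and 11.7 FPKM in gelADSC libraries and 99.5 and 62.3 FPKM in control libraries (limma adjusted p = 0.000756). Adgre1 went the other way, with 12.7 and 4.68 FPKM in gelADSC libraries and 2.97 and 4.10 FPKM in control libraries, but was not called (limma adjusted p = 0.092). Clec4f, Csf1r and Lyz2 overlapped between the groups. The 4 neutrophil genes in the table summed to 70.1 and 24.5 FPKM in gelADSC libraries, against 69.8 and 63.6 FPKM in control libraries, and of these Retnlg was lower in both gelADSC libraries (limma adjusted p = 0.00365). The 5 endothelial genes summed to 76.9 and 77.2 FPKM in gelADSC libraries, against 70.3 and 67.0 FPKM in control libraries, with Stab2 and Kdr called higher and Lyve1 called lower. The 6 genes of stellate cells and fibroblasts summed to 118 and 94.2 FPKM in gelADSC libraries, against 146 and 67.9 FPKM in control libraries, with Lrat called higher. B cell genes summed to 1.49 and 2.27 FPKM in gelADSC libraries, against 0.145 and 0.152 FPKM in control libraries, and T cell genes to 0.647 and 0.847 FPKM in gelADSC libraries, against 0.105 and 0.110 FPKM in control libraries. Both were higher in gelADSC at levels too low to be tested. The part of these markers in the results on translation factors was not tested. In whole tissue, fewer cells of a type and less RNA per cell cannot be told apart.

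The translation factors were lower in gelADSC liver as a group. Their FPKM summed to 3876 and 4069 in gelADSC libraries, against 6671 and 5467 in control libraries, which is 0.749% and 0.821% of all FPKM in gelADSC and 1.30% and 1.07% in control. The groups did not overlap, and the summed level over the 59 tested factors in gelADSC was 65.5% of that in control. The most abundant member was Eef1a1, the carrier of aminoacyl-tRNA, ranked 32 among all genes by mean FPKM, followed by Eef2, Eif5a, Eif1 and Eif4g1. Without Eef1a1 the share was 0.437% and 0.492% in gelADSC libraries and 0.810% and 0.638% in control libraries.

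Of the 64 genes, 59 averaged 1 FPKM or more across all 4 libraries and were tested on log2(FPKM + 1), a scale that understates the change of low genes. By limma, with Benjamini-Hochberg adjustment across the 11070 genes above that limit and a threshold of 0.05, 24 of the 59 (40.7%) were lower in gelADSC, against 17.5% of all genes tested. None was higher, against 6.92% of all genes tested. At an unadjusted p under 0.05, 38 of the 59 were lower (64.4%, against 29.5% of all genes) and 0 higher (against 10.4%). The median log2 change of the 59 was -0.54, against -0.25 over all genes tested, and single changes ran from -2.14 for Eif6 to 0.37 for Eef2k. Both gelADSC libraries lay under both control libraries for 50 of the 59 factors, against 50.5% of all genes, and above them for 2 (Eif2ak1 and Eef2k), against 19.2% of all genes. The other 7 overlapped. In 7 of the 59 factors (11.9%) the gelADSC mean was under 50% of the control mean, and the share of all genes under that limit was not counted.

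The whole table was shifted downward in gelADSC, by a median of 0.25 on the log2 scale. Each library was therefore also centred on the median of the tested genes, which gives a median-relative change for each factor. On this scale 12 of the 59 (20.3%) were lower, against 9.10% of all genes tested, and none was higher, against 9.27%. The 12 were Eif1a, Eif1ax, Eif2s1, Eif2b2, Eif3g, Eif4e, Eif5a, Eif6, Eef1g, Eef1e1, Eef2kmt and Eif2d, and their median-relative changes ran from -0.52 to -1.90. At an unadjusted p under 0.05, limma gave 29 lower (49.2%, against 20.0% of all genes) and 2 higher (3.39%, against 19.5%). The median of the 59 relative changes was -0.30. Abundant genes were called lower more often than the table as a whole, and most of the factors are abundant. Among genes averaging 10 FPKM or more, a limit chosen after the values were seen, 22 of 50 factors were lower as deposited, against 26.6% of all such genes, and 11 of 50 were lower relative to the median, against 14.5%.

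The calls leaned on control library 1. All 59 tested factors were higher in control library 1 than in control library 3, as were 76.8% of all tested genes, and the median gap was 0.33 for the factors and 0.21 for all genes on the log2 scale. Gene by gene, 57 factors (96.6%) were lower in gelADSC library 2, and 57 in gelADSC library 3, than in control library 1, against 73.8% and 70.1% of all genes. Set against control library 3 the counts were 53 (89.8%) and 50 (84.7%), against 65.9% and 58.1% of all genes. With control library 1 left out, Eif6 alone kept its call on the deposited scale (1.69% of the factors, against 2.94% of all genes), and no factor was called on the median-relative scale, against 0.307% of all genes. With gelADSC library 2 left out, 9 factors were lower as deposited (15.3%, against 1221 of the 11070 genes) and 1 relative to the median (1.69%, against 3.31%). With gelADSC library 3 left out the counts were 18 (30.5%, against 14.1%) and 2 (3.39%, against 2.93%). With control library 3 left out they were 24 (40.7%, against 15.9%) and 3 (5.08%, against 4.29%). On the median-relative scale the share of factors called was thus near or below that of all genes in each of these 4 fits. In each such fit 1 group has a single library, which is assumed to vary like the other group. Scaling each library by the median of ratios left 10 factors lower (16.9%, against 8.56% of all genes), all among the 24 (Eif1a, Eif1ax, Eif2s1, Eif2b2, Eif3g, Eif4e, Eif5a, Eif6, Eef2kmt and Eif2d). Quantile normalization left 5 (Eif2b3, Eif2d, Eif5a, Eif6 and Eef2kmt), a share of 8.47% that was no higher than the 9.03% of all genes. Without the filter on low values 3 of 61 factors were lower (4.92%, against 4.16% of all genes).

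**Figure D1:**
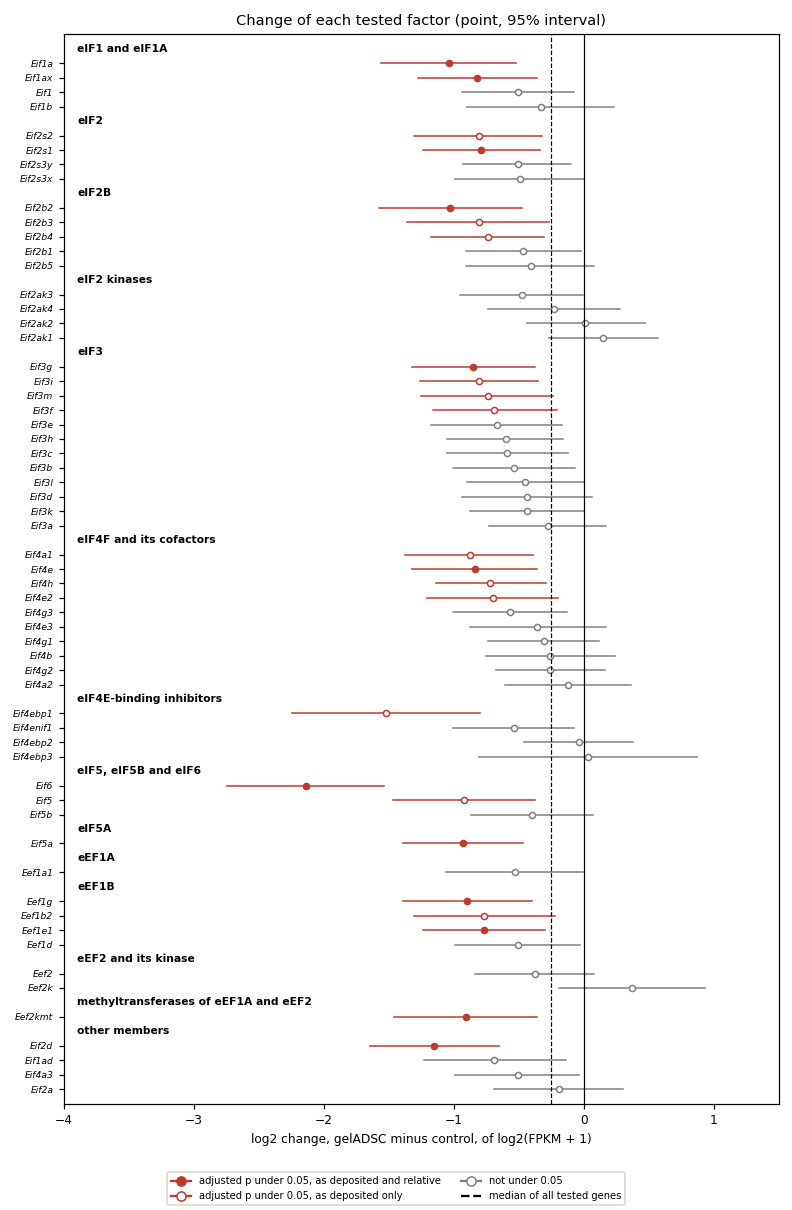
Log2 change (gelADSC minus control) of log2(FPKM + 1) for the 59 tested factors, sorted by complex, with points for estimates and lines for 95% intervals from limma (n = 2 libraries per group). Filled red points passed the adjusted threshold as deposited and relative to the median (12 factors), open red points as deposited only (12 more), and the dashed line at -0.25 is the median of all tested genes, with most points to its left.

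**Figure D2:**
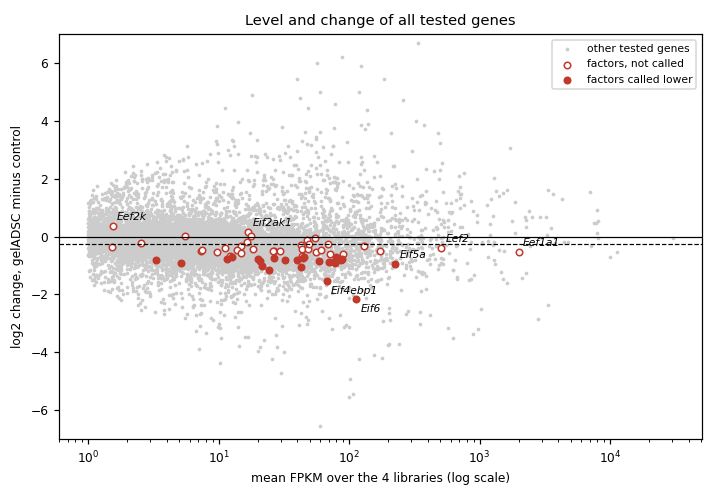
Change in gelADSC against control (log2 scale, vertical axis) by mean FPKM over the 4 libraries (horizontal axis, log scale) for all 11070 tested genes in grey and the 59 tested factors in red, filled where called lower as deposited; the dashed line is the median of all tested genes. Eif6 at -2.14 and Eif4ebp1 at -1.52 lie lowest among the factors, and Eef1a1 and Eef2 lie at the right end of the level axis.

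Promoter sequence was available for 50 of the 64 factors as windows of 250 bases before and 50 bases from the annotated start, from RefSeq on build GRCm38.p6. The counts of letters below leave out the other factors, among them Eif6 and Eif4ebp1, which had the largest changes (-2.14 and -1.52). The windows below show the annotated starts around which the letters were counted. The first set has in capitals an unbroken run of C and T close to the annotated start of the carrier eEF1A, of both gamma subunits of eIF2, and of an eIF3 subunit. In Eef1a1, Eif2s3x and Eif3f the run begins before the annotated start and covers it. In Eif2s3y it begins at base 2, counting the start as base 1. Whether these messages begin with the run, as those whose translation follows mTORC1 do, was not tested. Each window runs 5′ to 3′ on the gene's strand over 55 bases, of which the last 15 begin with the annotated start.
Eef1a1 (chr9:78481710-78481764, minus strand): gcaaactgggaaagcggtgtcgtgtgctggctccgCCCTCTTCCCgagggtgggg
Eif2s3x (chrX:94212637-94212691, minus strand): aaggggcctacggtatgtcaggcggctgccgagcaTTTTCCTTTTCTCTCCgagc
Eif2s3y (chrY:1010555-1010609, plus strand): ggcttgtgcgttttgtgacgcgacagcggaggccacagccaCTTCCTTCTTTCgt
Eif3f (chr7:108934375-108934429, plus strand): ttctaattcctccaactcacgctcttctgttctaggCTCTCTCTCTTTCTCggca

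The second set has in capitals the letters CCGGAAG or their reverse complement CTTCCGG, which are the core that ETS-family factors are known to bind, in subunits of eEF1B, eIF2B and eIF3.
Eef1b2 (chr1:63176791-63176845, plus strand): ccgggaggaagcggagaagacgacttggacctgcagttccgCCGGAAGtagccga
Eif2b4 (chr5:31193125-31193179, minus strand): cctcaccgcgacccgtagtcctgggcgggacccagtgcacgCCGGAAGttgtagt
Eif3c (chr7:126566352-126566406, minus strand): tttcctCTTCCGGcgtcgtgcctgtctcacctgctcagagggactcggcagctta
Eif3l (chr15:79075183-79075237, plus strand): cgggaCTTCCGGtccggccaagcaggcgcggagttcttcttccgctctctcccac

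In any window of a gene, on either strand, CCGGAAG was present in 17 of the 50 factors (34%), against 9.93% of the 27025 genes of the promoter table. The GC box GGGCGG was present in 38 (76%), against 38.2% of all genes, and the E-box CACGTG in 12 (24%), against 8.09%. The letters CCAAT were present in 16 (32%), against 41.1%, and TATAAA in 5 (10%), against 15.7%. A run of at least 8 C or T on the gene's strand, overlapping the 5 bases on either side of the annotated start, was present in 10 (20%), against 11.4%, and such a run may share letters with CTTCCGG. The motifs were chosen after the windows had been read, and the table includes many genes not expressed in liver, so these shares are descriptions. Lower calls occurred with and without the letters. Of 16 tested factors with CCGGAAG 8 were lower in gelADSC, with a median log2 change of -0.69, and of 31 without it 10 were lower, with a median of -0.51. Of 10 tested factors with the pyrimidine run 3 were lower, with a median of -0.52, and of 37 without it 15 were lower, with a median of -0.54.

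Among the factors that scan for the start codon, Eif1a and Eif1ax fell, and Eif1 and Eif1b did not pass the test. Eif1a and Eif1ax encode near-identical forms of eIF1A, which holds the initiator tRNA in place, and eIF1 guards start codon choice. Eif1a read 28.4 and 26.3 FPKM in gelADSC libraries and 69.5 and 47.0 FPKM in control libraries, a log2 change of -1.04 ± 0.23 (SE, n = 2 per group, limma adjusted p = 0.0136). Eif1ax read 26.9 and 30.0 FPKM in gelADSC libraries and 57.7 and 45.03 FPKM in control libraries, a log2 change of -0.82 ± 0.20 (limma adjusted p = 0.0219). The groups did not overlap for either gene, and the ratio of Eif1a to Eif1ax did overlap, at 1.05 and 0.875 in gelADSC and 1.2 and 1.04 in control. Because the copies are so alike, how reads were divided between them is uncertain. Eif1, the most abundant of the 4, read 135 and 148 FPKM in gelADSC libraries and 208 and 196 FPKM in control libraries, a log2 change of -0.51 ± 0.19 that did not pass (limma adjusted p = 0.079). Eif1b overlapped between the groups, with 10.5 and 15.5 FPKM in gelADSC libraries and 19.3 and 13.9 FPKM in control libraries (limma adjusted p = 0.345). Neither call held without control library 1, at -0.76 for Eif1a and -0.65 for Eif1ax, and of the 2 genes Eif1a held without gelADSC library 2.

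All 4 tested subunit genes of eIF2, the carrier of initiator tRNA, had negative changes, as had 7616 of the 11070 genes tested. On the deposited scale 2 of the 4, those of the alpha and beta subunits, were lower, where 17.5% of all genes were. The alpha subunit gene Eif2s1, which holds the serine that stress kinases phosphorylate, read 13.4 and 15.4 FPKM in gelADSC libraries and 28.1 and 23.3 FPKM in control libraries (log2 change -0.79 ± 0.20, limma adjusted p = 0.0239). The beta subunit gene Eif2s2 read 21.9 and 24.2 FPKM in gelADSC libraries and 49.0 and 34.7 FPKM in control libraries (log2 change -0.81 ± 0.22, limma adjusted p = 0.0296). The groups were apart in both genes, and control library 1 was the highest. Relative to the median, where 9.10% of all genes were lower, Eif2s1 passed and Eif2s2 did not (limma adjusted p = 0.0581). The gamma subunit is encoded by Eif2s3x on the X chromosome and Eif2s3y on the Y chromosome, whose promoter windows both hold the pyrimidine run shown above. Eif2s3x read 5.24 and 6.49 FPKM in gelADSC libraries and 9.74 and 7.64 FPKM in control libraries (log2 change -0.49 ± 0.22, limma adjusted p = 0.126). Eif2s3y read 20.9 and 22.7 FPKM in gelADSC libraries and 31.5 and 31.5 FPKM in control libraries (log2 change -0.51 ± 0.18, limma adjusted p = 0.0713). Neither gamma gene passed the test, and the Y copy exceeded the X copy in every library, by ratios of 3.98 and 3.50 in gelADSC and 3.24 and 4.12 in control. The calls for Eif2s1 and Eif2s2 were lost without control library 1 (-0.66 and -0.57), as they were when gelADSC library 2 was left out.

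The exchange factor eIF2B, which reloads eIF2 with GTP, showed 3 of 5 subunit genes lower on the deposited scale, where 17.5% of all genes were. Relative to the median 1 of the 5, Eif2b2, was lower, against 9.10% of all genes. Eif2b2, encoding a regulatory subunit, read 12.5 and 14.96 FPKM in gelADSC libraries and 35.9 and 23.4 FPKM in control libraries, a log2 change of -1.03 ± 0.24 (limma adjusted p = 0.018). Eif2b4, the most abundant subunit gene, read 19.8 and 19.6 FPKM in gelADSC libraries and 37.1 and 30.6 FPKM in control libraries, a log2 change of -0.74 ± 0.19 (limma adjusted p = 0.0261). Eif2b3, the least abundant, also fell, by 0.81 on the log2 scale, and its gelADSC mean was 46.4% of the control mean. The catalytic subunit gene Eif2b5 changed least, with 14.4 and 16.5 FPKM in gelADSC libraries and 24.6 and 17.7 FPKM in control libraries (log2 change -0.41 ± 0.22, limma adjusted p = 0.19). The ratio of Eif2b5 to Eif2b2 was 1.16 and 1.10 in gelADSC libraries and 0.684 and 0.757 in control libraries. None of the 3 calls held without control library 1 (-0.57 to -0.73), and Eif2b2 alone held without gelADSC library 2 or 3.

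None of the 4 kinase genes whose products phosphorylate eIF2 passed the test in either direction, and by limma 1 (Eif2ak3) had an unadjusted p under 0.05. Their median log2 change was -0.11 as deposited and 0.14 relative to the median of all genes. Eif2ak1, the heme-regulated kinase, read 17.3 and 18.1 FPKM in gelADSC libraries and 16.3 and 15.5 FPKM in control libraries, and so lay higher in both gelADSC libraries by a small amount (log2 change 0.15 ± 0.18, limma adjusted p = 0.582). Relative to the median its change was 0.39 ± 0.12, which did not pass (limma adjusted p = 0.0778). Eif2ak2, the kinase activated by double-stranded RNA, overlapped between the groups, with 5.67 and 5.48 FPKM in gelADSC libraries and 5.82 and 5.23 FPKM in control libraries (limma adjusted p = 0.971). Eif2ak3, the kinase of endoplasmic reticulum stress, read 5.86 and 6.16 FPKM in gelADSC libraries and 9.84 and 7.80 FPKM in control libraries (log2 change -0.48 ± 0.21, limma adjusted p = 0.12). Eif2ak4, the kinase that senses uncharged tRNA, read 2.16 and 2.35 FPKM in gelADSC libraries and 3.28 and 2.40 FPKM in control libraries (log2 change -0.23 ± 0.22, limma adjusted p = 0.475). The kinase Eif2ak1 thus stood at 1.29 and 1.17 times its substrate Eif2s1 in gelADSC libraries, against 0.580 and 0.664 times in control libraries. For ratios no test across genes applies, and an exact two-sided permutation test of 2 against 2 libraries cannot give a p below 0.333.

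**Figure D3:**
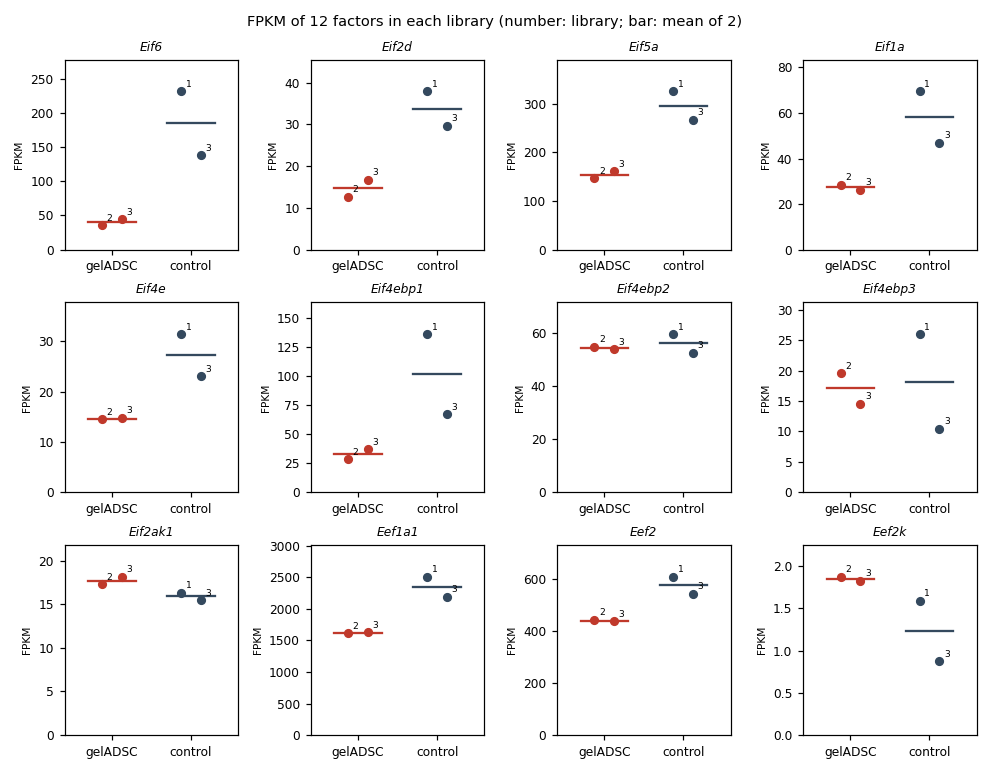
FPKM in each of the 4 libraries for 12 factors, 1 panel a gene with an axis from 0, with gelADSC libraries left of control libraries, numbers naming the library and bars the mean of 2 libraries. Eif6 and Eif4ebp1 are low in both gelADSC libraries and highest in control library 1, whereas Eif2ak1 and Eef2k are slightly higher in gelADSC.

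The scaffold eIF3, which holds the initiation complex on the small subunit, had a negative change in every tested subunit gene, as had 7616 of the 11070 genes tested. On the deposited scale 4 of 12 passed the test as lower, where 17.5% of all genes did. These were Eif3f, Eif3g, Eif3i and Eif3m. On the median-relative scale 1 of the 12, Eif3g, passed, against 9.10% of all genes, and Eif3a stood at -0.03. Eif3g, with the largest change, read 39.2 and 44.5 FPKM in gelADSC libraries and 86.3 and 67.0 FPKM in control libraries (log2 change -0.85 ± 0.20, limma adjusted p = 0.0201). Eif3i read 55.9 and 70.3 FPKM in gelADSC libraries and 117 and 104 FPKM in control libraries (log2 change -0.81 ± 0.20, limma adjusted p = 0.023). Eif3f and Eif3m changed by -0.69 and -0.74, with gelADSC means at 60.7% and 58.0% of the control means. The most abundant subunit gene, Eif3h, just missed the threshold at 66.4 and 75.1 FPKM in gelADSC libraries and 117 and 99.7 FPKM in control libraries (log2 change -0.60 ± 0.19, limma adjusted p = 0.0523). Eif3a, the largest subunit and part of the core, changed least, with 36.6 and 40.0 FPKM in gelADSC libraries and 52.3 and 41.6 FPKM in control libraries (log2 change -0.28 ± 0.20, limma adjusted p = 0.321). Both gelADSC libraries lay under both control libraries for each of the 12, as for 50.5% of all genes, and their median log2 change was -0.60. In each library the subunits stayed within a narrow range, the highest exceeding the lowest 2.08-fold and 2.31-fold in gelADSC libraries and 2.23-fold and 2.51-fold in control libraries. Eif3j1 and Eif3j2, near-identical copies of the subunit gene that assists start codon recognition, were listed at 0 in all 4 libraries and were not tested. No eIF3 call held without gelADSC library 2 or without control library 1, where Eif3g stood at -0.67 and Eif3i at -0.72. Eif3g and Eif3i held without gelADSC library 3, and Eif3f, Eif3g and Eif3m without control library 3.

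**Figure D4:**
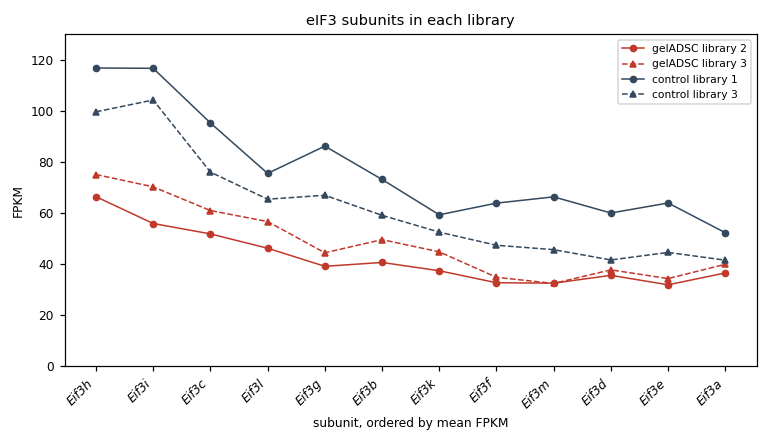
FPKM of the 12 tested eIF3 subunit genes (horizontal axis, ordered by mean level), with 1 line per library, red for gelADSC and dark blue for control. The lines keep nearly the same shape, both gelADSC lines run below both control lines at every subunit, and control library 1 is the highest throughout.

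Of 10 tested genes of the cap-binding complex eIF4F and its cofactors, 4 were lower on the deposited scale, where 17.5% of all genes were. These were Eif4a1, Eif4e, Eif4e2 and Eif4h. Relative to the median 1 of the 10, Eif4e, was lower, near the 9.10% of all genes, and Eif4a1, Eif4e2 and Eif4h did not pass. Eif4e encodes the cap-binding protein itself, and read 14.5 and 14.8 FPKM in gelADSC libraries and 31.4 and 23.1 FPKM in control libraries (log2 change -0.84 ± 0.21, limma adjusted p = 0.0237). Its relative Eif4e2, a cap-binding protein that takes part in repression, read 8.72 and 9.81 FPKM in gelADSC libraries and 18.5 and 13.3 FPKM in control libraries (log2 change -0.70 ± 0.22, limma adjusted p = 0.0482). Eif4e3 was weak, with 1.47 and 0.988 FPKM in gelADSC libraries and 1.88 and 1.80 FPKM in control libraries (limma adjusted p = 0.274), and the germline form Eif4e1b was listed at 0 in all 4 libraries.

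The helicase genes Eif4a1 and Eif4a2, which encode closely related forms of eIF4A, parted. Eif4a1 read 46.4 and 51.2 FPKM in gelADSC libraries and 107 and 76.6 FPKM in control libraries (log2 change -0.88 ± 0.22, limma adjusted p = 0.022). Eif4a2 read 47.1 and 43.1 FPKM in gelADSC libraries and 57.6 and 41.9 FPKM in control libraries, overlapping between the groups (log2 change -0.12 ± 0.21, limma adjusted p = 0.7, 95% interval -0.61 to 0.36). The ratio of Eif4a1 to Eif4a2 was 0.984 and 1.19 in gelADSC libraries and 1.86 and 1.83 in control libraries. The control ratios were close to each other although control library 1 was higher in both genes. Eif4h, which stimulates the helicase, fell by 0.72 on the log2 scale, and its gelADSC mean was 60.4% of the control mean, whereas Eif4b, which has a like role, changed by -0.26 and overlapped between the groups.

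None of the 3 scaffold genes passed the test, and Eif4g3 had the largest change of them. Eif4g1, the main scaffold and the most abundant gene of the complex, read 115 and 118 FPKM in gelADSC libraries and 155 and 135 FPKM in control libraries (log2 change -0.31 ± 0.19, limma adjusted p = 0.251). Eif4g2, a scaffold that lacks the cap-binding contact, read 60.9 and 64.5 FPKM in gelADSC libraries and 78.7 and 71.6 FPKM in control libraries (log2 change -0.26 ± 0.18, limma adjusted p = 0.325). Eif4g3 read 11.3 and 12.045 FPKM in gelADSC libraries and 19.2 and 16.5 FPKM in control libraries (log2 change -0.57 ± 0.19, limma adjusted p = 0.062). Both gelADSC libraries were below both control libraries for each scaffold, as for 50.5% of all genes. Of the 4 calls in the complex, none held without control library 1 (-0.48 to -0.64), Eif4a1 alone held without gelADSC library 2, and Eif4a1 and Eif4e held without gelADSC library 3.

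Among the genes whose products bind eIF4E and keep it from the scaffold, Eif4ebp1 was the one that fell, and it had the second largest change of all factors. Eif4ebp1, the inhibitor released from eIF4E when mTORC1 phosphorylates it, read 28.5 and 37.2 FPKM in gelADSC libraries and 136 and 67.0 FPKM in control libraries. The groups did not overlap, and control library 1 was far above control library 3. Its log2 change was -1.52 ± 0.32 (limma adjusted p = 0.0116) and its gelADSC mean was 32.4% of the control mean. Relative to the median the change was -1.28 ± 0.30, which just missed the threshold (limma adjusted p = 0.0508), and without control library 1 the deposited change was -1.02 (limma adjusted p = 0.0876). Eif4ebp2 overlapped between the groups, with 54.8 and 53.9 FPKM in gelADSC libraries and 59.5 and 52.6 FPKM in control libraries (log2 change -0.04 ± 0.18, limma adjusted p = 0.887, 95% interval -0.46 to 0.38). Eif4ebp3 also overlapped and varied most within groups, with 19.6 and 14.5 FPKM in gelADSC libraries and 26.0 and 10.4 FPKM in control libraries (log2 change 0.03 ± 0.37, limma adjusted p = 0.964). Eif4enif1, which carries eIF4E into the nucleus, read 7.04 and 8.42 FPKM in gelADSC libraries and 12.7 and 10.7 FPKM in control libraries (log2 change -0.54 ± 0.20, limma adjusted p = 0.0844).

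The mix of inhibitors thus differed between the groups. Eif4ebp1 stood at 0.520 and 0.690 times Eif4ebp2 in gelADSC libraries, against 2.28 and 1.27 times in control libraries, so the more abundant of the pair was Eif4ebp2 in gelADSC and Eif4ebp1 in control. The sum of Eif4ebp1, Eif4ebp2 and Eif4ebp3 per Eif4e was 7.11 and 7.14 in gelADSC libraries and 7.06 and 5.64 in control libraries. That sum was near the same multiple of its target in 3 of the 4 libraries, and lower in control library 3.

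**Figure D5:**
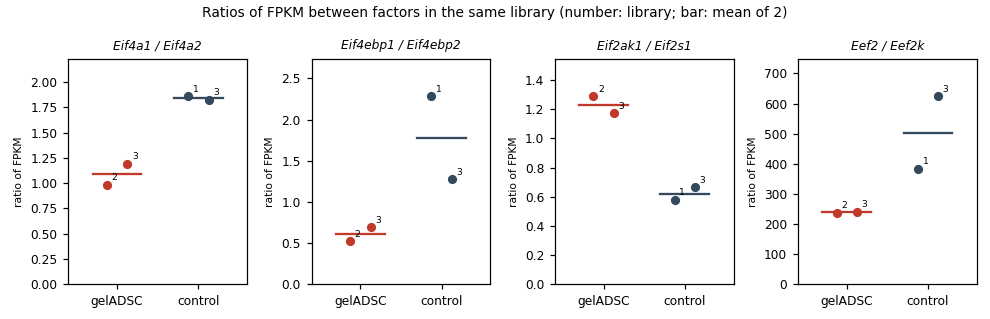
Ratios of FPKM between pairs of factors in the same library (vertical axes, from 0), with gelADSC libraries left of control libraries, numbers naming the library and bars the mean of 2 libraries. Eif4a1 to Eif4a2, Eif4ebp1 to Eif4ebp2 and Eef2 to Eef2k are lower in both gelADSC libraries, and Eif2ak1 to Eif2s1 is higher.

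The largest change of all factors was in Eif6, which binds the large ribosomal subunit and keeps it from joining the small one too early. Eif6 read 35.4 and 44.3 FPKM in gelADSC libraries and 231 and 138 FPKM in control libraries. Every gelADSC value was under every control value by a wide margin, and control library 1 was again the highest. The gelADSC mean was 21.6% of the control mean, and the log2 change was -2.14 ± 0.27 (limma adjusted p = 0.00126). Relative to the median it was -1.90 ± 0.22 (limma adjusted p = 0.0154). Eif6 was the only factor called under every alternative tried on the deposited scale. Without control library 1 it stood at -1.77 (limma adjusted p = 0.0309), and relative to the median at -1.63, which did not pass (limma adjusted p = 0.0571). Eif5, the GTPase-activating partner of eIF2, fell as well, with 55.2 and 49.5 FPKM in gelADSC libraries and 124 and 80.5 FPKM in control libraries (log2 change -0.92 ± 0.24, limma adjusted p = 0.0261). Its change was -0.61 and not called without control library 1. Eif5b, the GTPase that joins the subunits, did not pass, with 8.99 and 9.83 FPKM in gelADSC libraries and 14.3 and 11.3 FPKM in control libraries (log2 change -0.40 ± 0.20, limma adjusted p = 0.182). The ratio of Eif6 to Eif5b was 3.94 and 4.51 in gelADSC libraries and 16.1 and 12.3 in control libraries.

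Eif5a fell by 0.93 on the log2 scale. It encodes the hypusine-bearing factor that relieves stalled ribosomes, and it was the third most abundant member. It read 147 and 161 FPKM in gelADSC libraries and 325 and 266 FPKM in control libraries (SE 0.20, limma adjusted p = 0.0132), and the groups were well apart. Its relative change was -0.69 (limma adjusted p = 0.0402). The change was -0.79 and not called without control library 1 (limma adjusted p = 0.105). The second copy, Eif5a2, was near 0, with 0.0657 and 0.0994 FPKM in gelADSC libraries and 0.201 and 0.0221 FPKM in control libraries, and was not tested.

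The elongation factors that carry tRNA and move the ribosome did not pass the test, whereas most subunits of the exchange factor did. Eef1a1 read 1614 and 1627 FPKM in gelADSC libraries and 2508 and 2194 FPKM in control libraries (log2 change -0.53 ± 0.23, limma adjusted p = 0.12). Its groups were apart, but its change was near the median of the factors, and its relative change was -0.29 (limma adjusted p = 0.365). Eef1a2, the form of muscle and neurons, was near 0, with 0.0200 and 0 FPKM in gelADSC libraries and 0.0245 and 0 FPKM in control libraries. Close copies and processed pseudogenes of such abundant factors can take reads from each other, so levels of Eef1a1 carry this uncertainty.

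In eEF1B, which reloads eEF1A with GTP, 3 of 4 genes fell on the deposited scale, where 17.5% of all genes did. Relative to the median 2 of the 4, Eef1g and Eef1e1, were lower, against 9.10% of all genes. Eef1g, the gamma subunit, read 49.99 and 56.1 FPKM in gelADSC libraries and 117 and 84.3 FPKM in control libraries (log2 change -0.90 ± 0.22, limma adjusted p = 0.0205). Eef1b2, the exchange subunit and the most abundant of the 4, read 59.9 and 68.5 FPKM in gelADSC libraries and 136 and 88.2 FPKM in control libraries (log2 change -0.77 ± 0.24, limma adjusted p = 0.0491). Eef1e1, an auxiliary member also found with the aminoacyl-tRNA synthetases, changed by -0.77, and its gelADSC mean was 56.1% of the control mean. Eef1d, the other exchange subunit, changed least and did not pass, with 18.7 and 24.2 FPKM in gelADSC libraries and 33.6 and 28.0 FPKM in control libraries (log2 change -0.51 ± 0.21, limma adjusted p = 0.107). Per Eef1g, Eef1a1 stood at 32.3 and 29.0 in gelADSC libraries and at 21.4 and 26.0 in control libraries. No eEF1B call held without control library 1 (-0.46 to -0.66), Eef1g alone held without gelADSC library 2, and Eef1e1 was lost without control library 3.

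Eef2, the translocase, read 443 and 439 FPKM in gelADSC libraries and 609 and 544 FPKM in control libraries (log2 change -0.38 ± 0.20, limma adjusted p = 0.189). Eef2k, the kinase that inactivates eEF2, ran the other way at a low level, with 1.87 and 1.83 FPKM in gelADSC libraries and 1.59 and 0.872 FPKM in control libraries (log2 change 0.37 ± 0.24, limma adjusted p = 0.287). Relative to the median Eef2k changed by 0.62 ± 0.17, which did not pass (limma adjusted p = 0.0681), though it did with a pseudocount of 5. The ratio of Eef2 to Eef2k was 237 and 240 in gelADSC libraries and 383 and 624 in control libraries, so the gelADSC libraries were nearly equal and both lay below control. Eef2kmt, a methyltransferase acting on eEF2, fell, with 2.91 and 3.57 FPKM in gelADSC libraries and 8.46 and 5.65 FPKM in control libraries (log2 change -0.91 ± 0.24, limma adjusted p = 0.0287). Its call was lost without control library 1 (-0.65) or gelADSC library 2.

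Of 4 members outside these complexes, Eif2d fell. Eif2d can deliver tRNA to the ribosome without GTP and acts in recycling, and it read 12.7 and 16.7 FPKM in gelADSC libraries and 37.9 and 29.7 FPKM in control libraries. Its groups were well apart, and its log2 change of -1.15 ± 0.22 was the third largest of all factors (limma adjusted p = 0.00805). With control library 1 left out it was -0.98 and was not called (limma adjusted p = 0.0972). Eif4a3, the helicase of the exon junction complex and the most abundant of the 4, read 22.2 and 26.0 FPKM in gelADSC libraries and 39.6 and 30.4 FPKM in control libraries (log2 change -0.51 ± 0.21, limma adjusted p = 0.104). Eif2a, an alternative tRNA carrier distinct from eIF2, changed least, overlapping between the groups with 13.6 and 17.1 FPKM in gelADSC libraries and 20.0 and 15.4 FPKM in control libraries (limma adjusted p = 0.54). Eif1ad changed by -0.69 and did not pass (limma adjusted p = 0.0668).

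Genes that work beside these factors were taken as 7 lists, whose counts stand against 17.5% lower and 6.92% higher over all genes as deposited, and 9.10% lower and 9.27% higher relative to the median. Of 8 tested factors of termination and ribosome recycling, 4 were lower and 0 higher, with a median log2 change of -0.65, and 3 were lower relative to the median. Etf1, the release factor that reads stop codons, changed most among them, with 26.7 and 29.6 FPKM in gelADSC libraries and 53.8 and 48.2 FPKM in control libraries (log2 change -0.83 ± 0.19, limma adjusted p = 0.0154). Of 8 poly(A)-binding proteins and partners, 3 were lower and 0 higher, with a median of -0.37, and 1 (Paip1) was lower relative to the median. Pabpc1, the main cytoplasmic poly(A)-binding protein, read 51.6 and 61.6 FPKM in gelADSC libraries and 155 and 88.3 FPKM in control libraries (log2 change -1.04 ± 0.27, limma adjusted p = 0.0279). Of 7 initiation cofactors outside the Eif names, 2 were lower and 0 higher, with a median of -0.58, and relative to the median Bzw2 was lower and Pdcd4, an inhibitor of the helicase eIF4A, was higher (0.72, limma adjusted p = 0.0307). Bzw2, a mimic of eIF5, read 3.70 and 3.61 FPKM in gelADSC libraries and 8.56 and 7.79 FPKM in control libraries (log2 change -0.98 ± 0.20, limma adjusted p = 0.0104). Of 9 enzymes that make hypusine on eIF5A and diphthamide on eEF2, 2 were lower and 0 higher, with a median of -0.53, and 1 (Dph6) was lower relative to the median. Dph6, an enzyme of diphthamide synthesis, read 1.97 and 2.54 FPKM in gelADSC libraries and 5.63 and 4.19 FPKM in control libraries (log2 change -0.86 ± 0.23, limma adjusted p = 0.0297). None of these 4 lists held a called gene on either scale without control library 1.

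None of the 10 tested mitochondrial translation factors was called by limma in either direction, none had an unadjusted p under 0.05 on the deposited scale, and their median log2 change was -0.14 as deposited and 0.11 relative to the median of all genes. They summed to 115 and 149 FPKM in gelADSC libraries, against 150 and 132 FPKM in control libraries, so the groups overlapped.

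Of 14 tested genes of mTORC1 and its regulators, 1 rose (against 6.92% of all genes) and 3 fell (against 17.5%) as deposited. The median of their log2 changes was -0.05. On the median-relative scale 3 were higher (Deptor, Tsc1 and Flcn), 1 was lower (Ddit4) and the median was 0.20. Centring raised the change of every gene by 0.25, and the median of the list moved with it. Tsc1 and Flcn kept their relative calls with no library left out, and stood at 0.82 and 0.78 without control library 1. The one that rose on both scales was Deptor, which encodes an inhibitor bound to mTOR, with 19.8 and 19.7 FPKM in gelADSC libraries and 4.98 and 6.52 FPKM in control libraries (log2 change 1.63 ± 0.20, limma adjusted p = 0.00127). Its groups were far apart and its gelADSC libraries nearly equal, and without control library 1 it stayed called at 1.47 as deposited (limma adjusted p = 0.0316) but not relative to the median (1.61, limma adjusted p = 0.0554). Ddit4, a stress-induced inhibitor of mTORC1, fell most, with 12.4 and 12.9 FPKM in gelADSC libraries and 32.7 and 27.2 FPKM in control libraries (log2 change -1.18 ± 0.19, limma adjusted p = 0.00418). Without control library 1 Ddit4 just missed the threshold at -1.05 (limma adjusted p = 0.0528).

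Of the 7 lists, the lowest median change was that of the integrated stress response genes, which belong to the response that follows when eIF2 is phosphorylated. The list holds the activator gene Atf4 beside other genes of the response, among them targets of ATF4. Sesn2 stands in this list and in that of mTORC1 and its regulators, and is counted in both. Of 13 tested, 8 were lower (Psat1, Asns, Trib3, Phgdh, Atf3, Sesn2, Atf5 and Atf4) and 0 higher as deposited, and their changes had a median of -1.11 on the log2 scale. On the median-relative scale 4 were lower (Psat1, Asns, Trib3 and Atf5) and 0 higher, with a median of -0.86. Psat1, an enzyme of serine synthesis, read 1.10 and 2.05 FPKM in gelADSC libraries and 42.9 and 17.4 FPKM in control libraries (log2 change -3.49 ± 0.38, limma adjusted p = 0.00074). Both gelADSC values were close to the limit of 1 FPKM, and the control values differed widely. Phgdh read 0.0876 and 0.424 FPKM in gelADSC libraries and 6.49 and 1.80 FPKM in control libraries. It thus met the limit of 1 FPKM only through its control values, so its lower call is no separate support. Without control library 1, Psat1 (-2.86, limma adjusted p = 0.0246) and Trib3 (-1.64, limma adjusted p = 0.0338) were the ones of this list still called as deposited, and none was called relative to the median (limma adjusted p = 0.0554 for Psat1 and 0.0616 for Trib3).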

How the data were processed

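The deposited table gives 1 value per gene and library, taken here as FPKM; its header names no unit. Per the submitters' processing notes, Trimmomatic 0.38, TopHat2 2.1.1 and Cufflinks 2.2.1 were used, and the human build hg19 is named although the symbols are those of mouse genes. Libraries were made with a stranded mRNA kit, per the labels' protocols. Of low-value pairs, 87.4% of 4716 were whole multiples of 1 read within 0.001, from which relative depth was taken. Values were fitted as log2(FPKM + 1) with limma 3.58.1 (mean-variance trend, two-sided) over the 11070 genes averaging 1 FPKM or more, and again after centring each library on the median difference of these genes. The fit was tested on simulated data. The factors and lists were chosen with earlier results of these data known. Values are given for the most abundant, the most and the least changed gene of each complex, for paralogs and for regulators, and for the most changed called gene of each outside list. Methyltransferases of eEF1A listed under other symbols are not members. Alternatives were pseudocounts of 0.1 and 5, no filter, a mean of at least 5 FPKM, no trend, other scalings, and each library left out.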

Additional observations from a re-analysis of the deposited data

How the results depend on the processing

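With 2 libraries a group, the calls depend on single libraries. No paired analysis was possible because the library columns share 1 number only and nothing says that it pairs them. On the deposited scale the 24 lower factors became 3 with no filter on low values (Eif2d, Eif5a and Eif6), 5 after quantile normalization and 10 after median ratio scaling, with shares as given above. Other settings of pseudocount, filter and trend gave 20 to 28. These were 33.9% to 50.9% of the factors, against 15.8% to 27.4% of all genes. Leaving out a library gave 1 to 24, and 0 higher factors throughout. Relative to the median the 12 lower factors became 8 with a mean of at least 5 FPKM (14.5%, against 10.9% of all genes). They became 18 with no filter (29.5%, against 8.84%), and the other settings of pseudocount and trend lay between. With a library left out they were fewer, as given above. The 0 higher factors became 1 with a pseudocount of 5 (Eef2k, against 9.60% of all genes) and 1 with a mean of at least 5 FPKM (Eif2ak1, against 12.9%). Changes that turned sign belonged to factors that had not been called. Under median ratio scaling and then quantile normalization, log2 changes were 0.09 and 0.14 for Eif2a, 0.01 and 0.01 for Eif3a, 0.16 and 0.15 for Eif4a2, 0.03 and 0.01 for Eif4b, and 0.25 and 0.21 for Eif4ebp2. With median ratio scaling Eif4g2 was at 0.03. With each library left out in turn, the estimates of some uncalled factors lay on both sides of 0. Changes ran from -0.05 to 0.08 for Eif2ak2, with -0.01 without gelADSC library 2, and from -0.35 without control library 3 to 0.10 without control library 1 for Eif4a2. They ran from -0.13 to 0.05 for Eif4ebp2 and from -0.59 to 0.65 for Eif4ebp3, each lowest without control library 3 and highest without control library 1, with Eif4ebp3 at -0.18 without gelADSC library 2. Relative to the median, Eif2ak4 was at -0.02 with a pseudocount of 0.1 and at -0.15 with no filter, and ran from -0.04 to 0.08 with a library left out, while Eif4ebp3 ran from -0.24 to 0.79. The cause of these shifts was not tested.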
